A study of Mus musculus with 18 samples.

Results

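The chemokine ligands are the small secreted proteins of the Ccl and Cxcl families, and their transcripts were described here in the lungs of mice fed or gavaged with 4 chemicals. A gene was a member when a probe set of the array, a group of short probes read as a single value, was annotated to exactly 1 symbol made of Ccl or Cxcl and a number. This gave 31 of the 18193 genes with such a probe set. A total of 46 probe sets named these 31 genes, and each gene was read from its brightest one by the mean of the 18 arrays. Probe sets that carried several symbols, 4 of them among chemokines, were left out, and with them Ccl19, the Ccl21 genes and Ccl27b.

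Each array was hybridised with lung RNA (right lobe) of 1 female mouse of B6C3F1, a hybrid strain used in rodent cancer bioassays. Dosing began at 5 weeks of age and lasted 13 weeks, so that the mice were 18 weeks old when sampled. The study asked which transcripts separate chemicals labelled as positive or negative for lung tumours, and each of the 6 groups held 3 animals. The feed control (animals 27, 28 and 29) was the reference for 3 chemicals mixed into feed 7 days a week. These were 1,5-naphthalenediamine (NDA, 2000 ppm, labelled positive, animals 2, 4 and 5), N-(1-naphthyl)ethylenediamine dihydrochloride (NEDD, 2000 ppm, labelled negative, animals 12, 14 and 15) and pentachloronitrobenzene (PCNB, 8187 ppm, labelled negative, animals 16, 18 and 20). The corn oil control (5 ml/kg by gavage 5 days a week, animals 22, 24 and 25) was the reference for 2,3-benzofuran given in the same vehicle and on the same days (240 mg/kg, labelled positive, animals 6, 8 and 10). Every chemical was given at 1 dose, and the labels name no mutant allele.

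Chemokines are secreted by epithelium, macrophages and stroma and steer leukocytes that carry the matching G protein-coupled receptors. In the lung the airway and alveolar epithelium makes several of them at rest, while others are induced by interleukin-1, tumour necrosis factor or interferon-gamma during inflammation. Families of ligands share receptors: Cxcr2 on neutrophils, Cxcr3 on activated T and NK cells, Ccr2 on monocytes, Ccr6 on B cells, some T cells and immature dendritic cells. Lung tissue was measured whole, so that a change in the number of cells of a type and a change in RNA per cell cannot be told apart.

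Of the 31 members, 24 passed the filter on low values (above the 40th percentile of the array on at least 3 arrays) and were tested among 13434 genes. The margin differed. Cxcl9 lay above the percentile on 6 arrays, Cxcl5 and Ccl11 on 8, Ccl2 on 11 and Cxcl10 on 17, while the other 19 did so on all 18. Ccl1, Ccl3, Ccl7, Ccl12, Cxcl2, Cxcl3 and Cxcl11 did not pass. Values are log2 signals, and a signal is compared between arrays for the same probe set only, never between genes.

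The array of benzofuran 10 stood apart from the other 17. Its score on the first principal component was 46.6 against -11.8 to 7.8, and its 3′ minus 5′ actin difference, an indirect measure of RNA integrity, was 0.91 against 0.33 to 0.73. Its recorded RNA integrity number was 8.9, within the 8.3 to 9.4 of the other samples that have one. A summed signal adds the signals of a list before the log2 is taken, so that its brightest genes weigh most. The markers of alveolar type 2 cells, which make surfactant, had a summed log2 signal of 15.97 to 16.19 over all arrays. Stroma markers lay at 12.71 to 13.33 with benzofuran and 13.57 to 13.63 with corn oil. Endothelium lay at 12.99 to 13.52 against 13.38 to 13.55, and neutrophil markers at 11.66 to 12.37 against 12.41 to 12.90. Col1a2 and Col3a1, 2 of 5 stroma markers, were called lower with benzofuran, where 1.73% of all genes were called. They were not called without benzofuran 10 (-0.46 and -0.56). Benzofuran 10 held the highest signal of all arrays for 7 of the 24 tested members, so several benzofuran differences are also given without it. Summed marker signals are given with it only. The actin difference was also lower with NDA (0.33 to 0.43) and NEDD (0.35 to 0.53) than in feed controls (0.58 to 0.73). With PCNB it was 0.35 to 0.58. With that difference as a covariate the NDA rises of Cxcl17, Ccl8 and Ccl20 were 1.80, 2.61 and 0.94.

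NDA raised 3 chemokine transcripts, Cxcl17, Ccl8 and Ccl20, and benzofuran raised Cxcl17. At an adjusted p under 0.05 (limma), 3 of 24 members were called for NDA, all higher, where 1.12% of all genes tested were called higher and 1.37% in either direction. For benzofuran 1 of 24 members was called, higher, where 1.56% of all genes were called higher and 1.73% in either direction. For NEDD limma called 0 of 24 members (0.0223% of all genes) and for PCNB 0 of 24 (0.0149%). An unadjusted p under 0.05 was reached by 8 members for NDA (10.3% of all genes), 1 for NEDD (9.44%), 0 for PCNB (2.97%) and 2 for benzofuran (19.5%). Most members moved little. The median difference over the 24 was 0.09 for NDA (-0.02 over all genes), -0.10 for NEDD (-0.02), -0.04 for PCNB (-0.02) and 0.09 for benzofuran (0.05). The arrays of 10 members did not overlap between NDA and feed control (21.1% of all genes), of 5 for NEDD (19.3%), of 1 for PCNB (8.54%) and of 2 for benzofuran (17.4%). The smallest p that an exact two-sided permutation test of 3 against 3 animals can give is 0.1, so that the tests here rest on a spread estimated over all 6 groups.

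**Figure D1:**
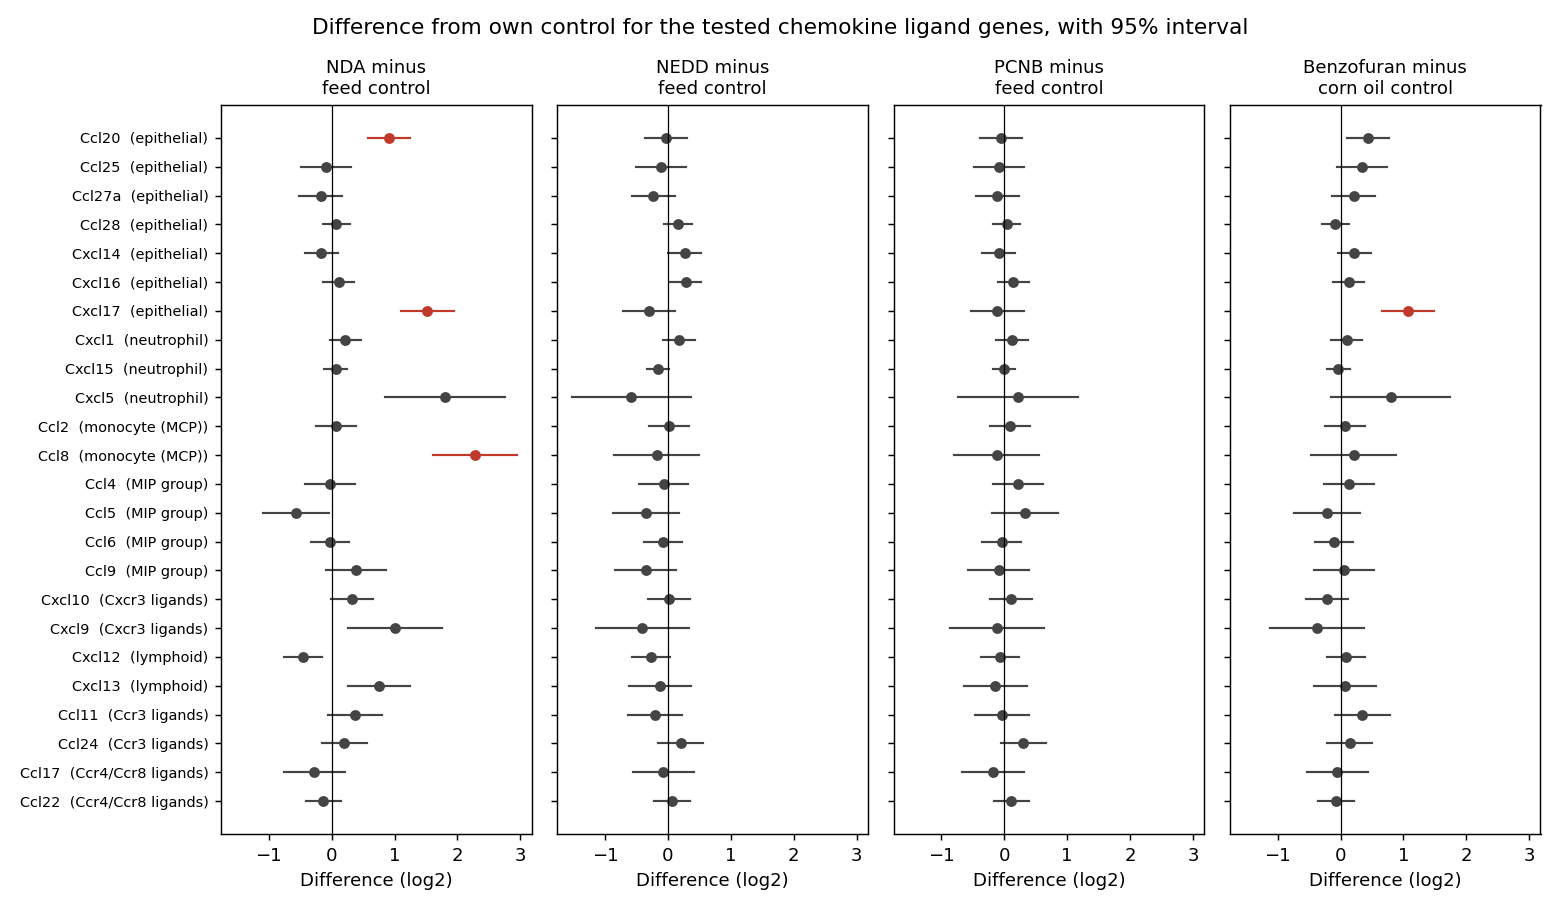
Differences in log2 signal for the 24 tested chemokine ligands, grouped by role, in each treatment against its own control; points are estimates, bars 95% confidence intervals from limma, and red marks an adjusted p under 0.05. Cxcl17, Ccl8 and Ccl20 are marked for NDA, Cxcl17 alone for benzofuran, and none for NEDD or PCNB.

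Among the epithelial ligands, Cxcl17, a chemokine of airway and other mucosal epithelium that attracts myeloid cells, was the member that rose with both chemicals labelled positive. Its log2 signal was 9.61, 9.67 and 9.14 in feed controls 27, 28 and 29 and 10.94, 11.08 and 10.98 in NDA 2, 4 and 5. It was 9.21, 9.75 and 9.58 in corn oil controls 22, 24 and 25 and 10.32, 10.37 and 11.07 in benzofuran 6, 8 and 10. All 6 arrays of these treatments lay above all 12 others, since NEDD (9.35, 9.03 and 9.14 in animals 12, 14 and 15) and PCNB (9.22, 9.69 and 9.20 in animals 16, 18 and 20) stayed within or below the range of the controls. The mean rose from 9.48 ± 0.29 (SD, n = 3) to 11.00 ± 0.07 with NDA, a difference of 1.52 ± 0.20 (SE; 95% interval 1.11 to 1.94; 2.87-fold; adjusted p = 0.0001389). With benzofuran it rose from 9.51 ± 0.27 to 10.59 ± 0.42, by 1.07 ± 0.20 (95% interval 0.66 to 1.49; 2.10-fold; adjusted p = 0.012). The benzofuran call was lost without benzofuran 10 (0.83, adjusted p = 0.0508), without corn oil control 22 (0.92, adjusted p = 0.0833), and with only these groups in the fit (1.07, adjusted p = 0.3228). The differences for NEDD (-0.30, 95% interval -0.72 to 0.11) and PCNB (-0.11, -0.52 to 0.31) did not pass the test.

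**Figure D2:**
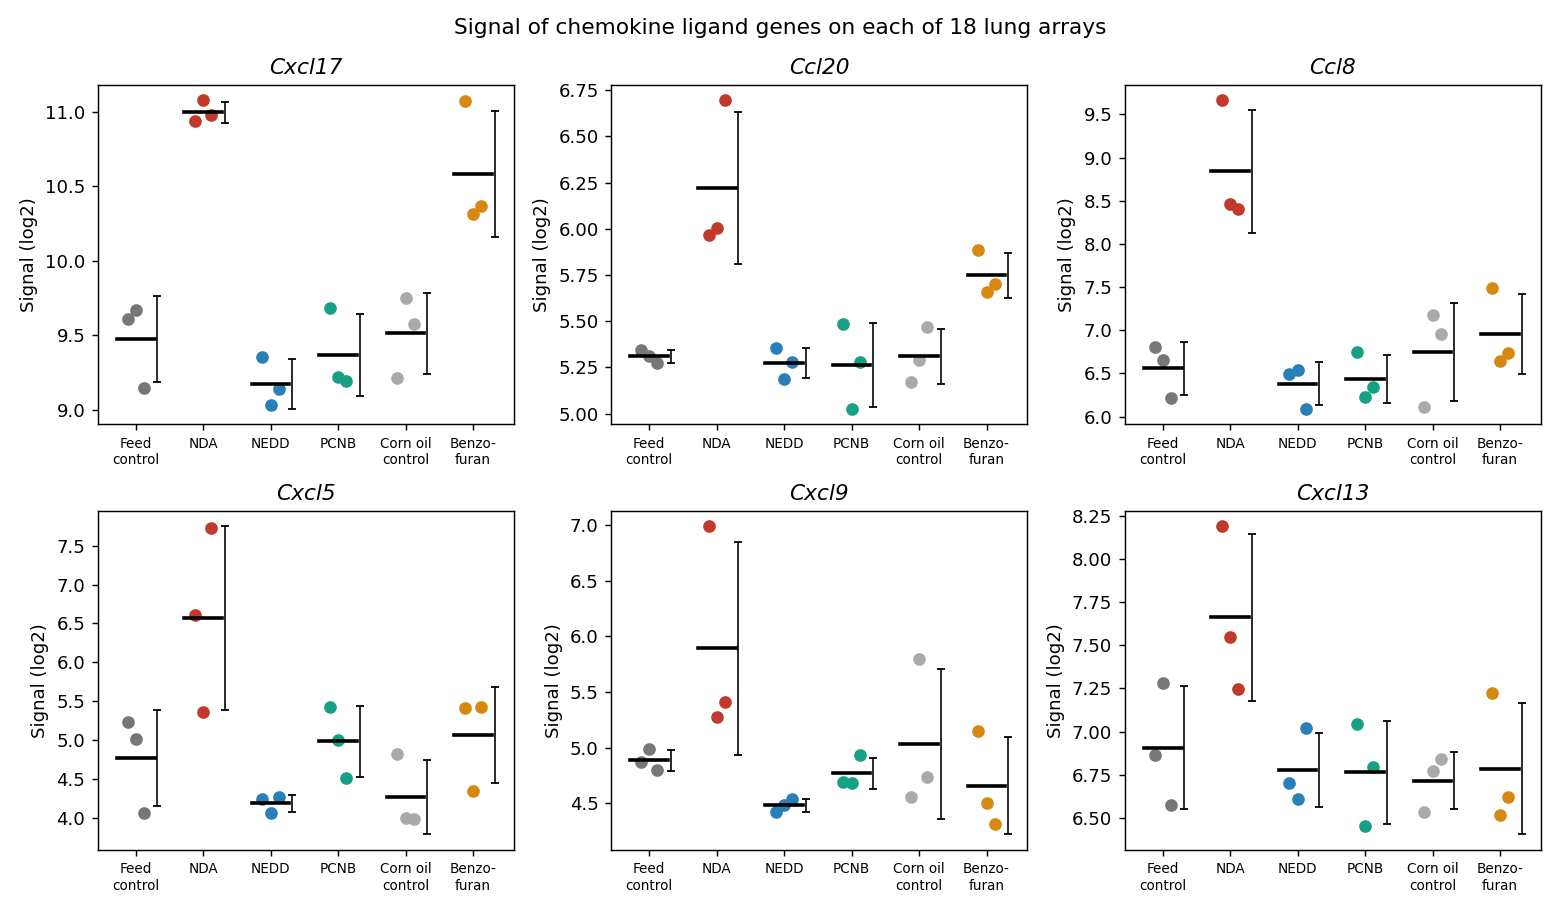
Log2 signal of 6 chemokine ligands in each of the 18 arrays, by group; points are animals and the bars show the group mean with its SD (n = 3). Cxcl17 sits between 10.32 and 11.08 in NDA and benzofuran and between 9.03 and 9.75 in the other groups, while Ccl8 lies between 8.40 and 9.66 in NDA and at most at 7.49 in the others.

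Markers of the epithelium that makes Cxcl17 were read on the same arrays. Of 10 club and goblet cell markers, all tested, NDA raised Upk3a, a uroplakin of a subset of club cells, by 1.40 ± 0.13 (adjusted p = 2.792e-06) and Agr2, a disulphide isomerase of mucous cells, by 1.33 ± 0.29 (adjusted p = 0.0239). The mean of Agr2 was 4.42 in feed controls, below the 40th percentile of every array, and 5.75 with NDA. Over all genes 1.37% were called for NDA. Only 4 of the 10 markers lay above 0 with NDA (median -0.11), and 4 had an unadjusted p under 0.05 (10.3% of all genes). Among those 4 was Cyp2f2, which was lower (13.73 against 13.94). Muc5b (7.47 against 8.37), Bpifa1 (11.25 against 12.16) and Scgb3a1 (11.71 against 12.25) were lower too. The summed signal of the list on the log2 scale was 15.67 to 15.76 with NDA and 15.77 to 16.13 in feed controls. Under benzofuran 0 of the 10 were called by limma (1.73% of all genes), and 1 had an unadjusted p under 0.05 (19.5% of all genes). The summed signals (15.87 to 16.04) overlapped those of corn oil (15.88 to 16.20). Of 7 ciliated cell markers benzofuran raised 1, Tekt4 (0.83 ± 0.17, adjusted p = 0.0178), all 7 lay above 0, and their summed signal was 12.42 to 12.77 against 12.03 to 12.35. The Tekt4 call was lost without benzofuran 10 (0.67, adjusted p = 0.0971). The part of these markers in the Cxcl17 result was not tested.

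Ccl20, an epithelial ligand of Ccr6, rose with NDA. Its signal was 5.34, 5.31 and 5.27 in feed controls and 5.97, 6.00 and 6.69 in NDA 2, 4 and 5, with NDA 5 the highest. The groups did not overlap, and the difference was 0.91 ± 0.16 (95% interval 0.58 to 1.25; 1.88-fold; adjusted p = 0.00334). In corn oil controls 22, 24 and 25 it was 5.17, 5.29 and 5.47, and in benzofuran 6, 8 and 10 it was 5.66, 5.70 and 5.89. These groups did not overlap either, and the difference of 0.44 ± 0.16 (95% interval 0.10 to 0.77) missed the threshold at an adjusted p of 0.1469, and was 0.37 without benzofuran 10 (adjusted p = 0.4434). NEDD (5.35, 5.19 and 5.28) and PCNB (5.03, 5.48 and 5.28) had means within 0.05 of the feed control. The signals of Ccl20 lie low on the array, just above the 40th percentile in controls, which limits what can be read from the size of its differences.

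The stretch before the start of Ccl20 is shown because it and Ccl8 are the NDA-called members with an entry in the promoter table (RefSeq, GRCm38.p6, + strand, 250 bases upstream of the start). The Ccl20 stretch lies at chr1:83116516-83116765. Capitals mark matches to a loose NF-kappaB pattern (GGG, any 5 bases, CC) and to the core of a xenobiotic response element, GCGTG, both sought on either strand.

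Ccl20: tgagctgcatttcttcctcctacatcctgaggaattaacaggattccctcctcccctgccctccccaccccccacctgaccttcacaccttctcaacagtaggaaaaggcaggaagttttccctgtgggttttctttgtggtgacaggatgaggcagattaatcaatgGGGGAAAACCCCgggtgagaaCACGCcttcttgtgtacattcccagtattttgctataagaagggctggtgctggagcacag

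The first capitals run from -82 to -71 relative to the start and hold overlapping matches to the NF-kappaB pattern on both strands. The second are a match to the xenobiotic core on the reverse strand at -61 to -57. These patterns are common, at 45.8% and 28.2% of all 32851 upstream windows of 250 bases, and a match is a description of letters. Among the 21 members with an entry, 13 held the NF-kappaB pattern and 8 the xenobiotic core.

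The other epithelial ligands showed no call. Cxcl16, the ligand of Cxcr6, which is made as a membrane-bound form by macrophages and epithelium, was 9.21, 9.27 and 9.23 in NEDD against 9.10, 8.96 and 8.79 in feed controls, a difference of 0.28 ± 0.12 (adjusted p = 0.4953) and the only member with an unadjusted p under 0.05 for NEDD. Its signal in NDA was 9.03, 9.09 and 9.06, in PCNB 9.17, 8.97 and 9.13 for animals 18, 16 and 20, in corn oil 8.84, 8.84 and 9.31, and in benzofuran 9.18, 9.09 and 9.10 for animals 10, 6 and 8. Cxcl14, a ligand made by many epithelia, was 8.45, 8.38 and 8.23 in feed controls and 8.71, 8.50 and 8.64 in NEDD, a difference of 0.26 (adjusted p = 0.529). It was 8.05, 8.46 and 8.07 in NDA, 8.26, 8.21 and 8.34 in PCNB 18, 16 and 20, 7.99, 7.90 and 8.21 in corn oil, and 8.05, 8.43 and 8.28 in benzofuran 10, 6 and 8. Ccl25, a ligand of Ccr9 best known from thymus and gut, was 6.60, 5.74 and 5.47 in benzofuran 10, 6 and 8 and 5.54, 5.60 and 5.65 in corn oil, a difference of 0.34 (adjusted p = 0.3401) that was 0.01 without benzofuran 10. It was 5.84, 5.82 and 5.85 in feed controls, 5.72, 5.78 and 5.75 in NDA, 5.81, 5.60 and 5.75 in NEDD and 5.51, 5.81 and 5.94 in PCNB 18, 16 and 20. Ccl27a and Ccl28, ligands of Ccr10, lay at 5.58 to 6.41 and 5.24 to 5.62 over all arrays.

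Ccl8 was raised by NDA and had the largest difference from feed control among the 24 members. It is named in the monocyte chemoattractant group, and the mouse protein acts on Ccr8. Its signal was 6.81, 6.66 and 6.21 in feed controls and 9.66, 8.46 and 8.40 in NDA 2, 4 and 5, with NDA 2 the highest. It was 6.50, 6.54 and 6.09 in NEDD, 6.22, 6.75 and 6.34 in PCNB 16, 18 and 20, 6.11, 7.18 and 6.95 in corn oil controls, and 6.64, 6.73 and 7.49 in benzofuran 6, 8 and 10. The NDA arrays lay above all 15 others. The mean rose from 6.56 ± 0.31 to 8.84 ± 0.71 (SD, n = 3), by 2.28 ± 0.32 (SE; 95% interval 1.61 to 2.95; 4.87-fold; adjusted p = 0.0003185). The benzofuran difference was 0.21 ± 0.32 (95% interval -0.47 to 0.88; -0.06 without benzofuran 10), and those for NEDD and PCNB were -0.18 and -0.12.

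The stretch before the start of Ccl8 lies at chr11:82114935-82115184 (+ strand, same table). It holds none of the patterns searched, so that it is printed without capitals. Besides the patterns above these were an AP-1 pattern (TGANTCA, in 6.7% of all windows), an antioxidant response element core (TGACNNNGC, 10.2%) and a repeat of GAAA after any 2 bases (3.0%).

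Ccl8: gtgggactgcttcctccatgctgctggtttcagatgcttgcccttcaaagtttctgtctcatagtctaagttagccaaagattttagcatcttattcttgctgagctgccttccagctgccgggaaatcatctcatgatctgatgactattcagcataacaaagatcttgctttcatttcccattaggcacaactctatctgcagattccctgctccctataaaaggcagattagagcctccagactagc

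Ccl8 is 1 of 6 members that follow each other without another coding gene between them on chromosome 11 in the RefSeq order of GRCm38.p6, namely Ccl2, Ccl7, Ccl11, Ccl12, Ccl8 and Ccl1. Of its neighbours, Ccl2 and Ccl11 were tested and did not pass with NDA. Ccl2, the main ligand of Ccr2, was 5.05, 5.13 and 5.04 in NDA and 5.24, 5.02 and 4.74 in feed controls. Ccl11, eotaxin, was 5.38, 5.36 and 5.18 in NDA and 4.86, 5.12 and 4.81 in feed controls, a difference of 0.37 (adjusted p = 0.5833). Ccl12, below the filter, was 5.53 in NDA 2 and 6.04 in benzofuran 10 and at most 4.93 elsewhere. Ccl1 and Ccl7 reached at most 4.87 and 4.81 on any array. Cxcl17 on chromosome 7 and Ccl20 on chromosome 1 have no other member within 3 coding genes.

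Markers of leukocytes were read on the same arrays. For NDA limma called 1.37% of all genes, and 10.3% had an unadjusted p under 0.05. Of 9 alveolar macrophage markers NDA raised 1, the scavenger receptor Marco (1.15 ± 0.16, adjusted p = 0.0002948). Marco was called lower for NEDD (6.41 against 7.46). With NDA only 3 of the 9 lay above 0 (median -0.11), and 3 had an unadjusted p under 0.05. These 3 were Marco and, both lower, Siglecf (7.04 against 7.73) and Car4 (10.43 against 10.95). The summed signal of the list was 13.27 to 13.48 against 13.36 to 13.63. Of 7 monocyte and dendritic cell markers tested 0 were called by limma, 1 had an unadjusted p under 0.05, and the sum over the 8 on the array was 11.21 to 11.47 against 11.50 to 11.63. Of 6 B and plasma cell markers 2 were called, both higher, Jchain (3.46 ± 0.48, adjusted p = 0.0002948) and Mzb1 (1.88 ± 0.27, adjusted p = 0.0003994). In all 4 of the 6 lay above 0, while Cd79b (8.42 against 8.46) and Xbp1 (11.87 against 11.94) were slightly lower. The sum was 13.05 to 13.52 against 12.26 to 12.47, a rise carried mostly by Jchain (12.19 against 8.72). The part of these markers in the Ccl8 result was not tested.

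Among the neutrophil-attracting ligands, Cxcl5 had the widest range in the set and missed the threshold. This ligand of Cxcr2 is made by alveolar epithelium. Its signal was 6.61, 5.36 and 7.73 in NDA 2, 4 and 5 and 5.23, 5.01 and 4.06 in feed controls. The groups did not overlap, but NDA 4 lay only just above feed control 27. The difference of 1.80 ± 0.45 (95% interval 0.85 to 2.75) had an adjusted p of 0.0608. Leaving out an animal moved it between 1.22 (without NDA 5, adjusted p = 0.3261) and 2.41 (without NDA 4, adjusted p = 0.0031), and it was 1.45 without feed control 29 (adjusted p = 0.3355). It was 5.41, 4.34 and 5.42 in benzofuran 10, 6 and 8 and 4.82, 3.99 and 3.99 in corn oil controls, a difference of 0.79 ± 0.45 (adjusted p = 0.3502) with overlapping arrays, or 0.62 without benzofuran 10. It was 4.24, 4.06 and 4.26 in NEDD and 5.00, 5.43 and 4.51 in PCNB 16, 18 and 20.

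Cxcl15, lungkine, a lung epithelial ligand that recruits neutrophils, varied little, at 13.20 to 13.57 over all 18 arrays. Its signal was 13.43, 13.53 and 13.47 in feed controls, 13.51, 13.57 and 13.53 in NDA, 13.27, 13.46 and 13.20 in NEDD, 13.44, 13.52 and 13.43 in PCNB 18, 16 and 20, 13.50, 13.46 and 13.50 in corn oil, and 13.41, 13.50 and 13.46 in benzofuran 10, 6 and 8. Cxcl1, a ligand of Cxcr2 induced in inflamed epithelium, was 7.61, 7.67 and 7.64 in NDA and 7.53, 7.36 and 7.36 in feed controls, a difference of 0.22 (adjusted p = 0.5837). Cxcl2 and Cxcl3 lay below the filter. Cxcl3 was 4.00, 3.49 and 3.53 in NDA and 2.97, 3.17 and 3.24 in feed controls, which do not overlap, but no test was made at signals this low. Cxcl5, Cxcl3, Cxcl15, Cxcl1 and Cxcl2 lie near each other on chromosome 5. Of 8 neutrophil markers NDA changed 0 by limma, and 0 also had an unadjusted p under 0.05 (10.3% of all genes). Their summed signal was 12.46 to 12.71 with NDA and 12.82 to 13.10 in feed controls.

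Of the Cxcr3 ligands, which interferon-gamma induces, Cxcl9 was 6.99, 5.28 and 5.41 in NDA 2, 4 and 5 and 4.87, 4.99 and 4.80 in feed controls. The difference of 1.00 ± 0.35 missed the threshold (adjusted p = 0.2536), and NDA 2 lay well above the other arrays. Without NDA 2 the difference was 0.46 (adjusted p = 0.5959). Cxcl9 was 4.42, 4.48 and 4.54 in NEDD, 4.70, 4.69 and 4.93 in PCNB 18, 16 and 20, 4.56, 5.80 and 4.73 in corn oil controls and 5.15, 4.51 and 4.32 in benzofuran 10, 6 and 8. Cxcl10 was 6.10, 5.45 and 5.59 in NDA and 5.39, 5.62 and 5.16 in feed controls (0.32 ± 0.16, adjusted p = 0.5111), and Cxcl11 reached at most 4.17 on any array. Of 10 other targets of interferon-gamma tested, 0 lay above 0 with NDA and 1 was called, where 1.37% of all genes were called. This gene, the guanylate-binding protein Gbp3, fell by 0.64 ± 0.13 (adjusted p = 0.0113). With benzofuran it fell by 0.61 ± 0.13 (adjusted p = 0.021), and without benzofuran 10 its difference was -0.53 (adjusted p = 0.0995).

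Among the lymphoid ligands, Cxcl13, which draws B cells through Cxcr5, was 8.19, 7.55 and 7.24 in NDA and 6.86, 7.28 and 6.57 in feed controls. The difference of 0.76 ± 0.24 missed the threshold (adjusted p = 0.1704), and feed control 28 lay above NDA 5. Cxcl13 was named after its values were seen. Cxcl12, the ligand of Cxcr4 made by stroma and endothelium, was 9.34, 8.95 and 9.12 in NDA and 9.50, 9.58 and 9.68 in feed controls, a difference of -0.45 ± 0.14 (adjusted p = 0.1794) without overlap. It was 9.19, 9.56 and 9.21 in NEDD, 9.36, 9.68 and 9.52 in PCNB 18, 16 and 20, 9.24, 9.30 and 9.37 in corn oil and 9.05, 9.59 and 9.51 in benzofuran 10, 6 and 8. Its other probe sets gave NDA differences of 0.48 and 0.21, so that the direction for Cxcl12 depends on the probe set.

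Of the macrophage inflammatory protein group, Ccl5 was 8.39, 7.82 and 8.36 in NDA and 8.85, 8.81 and 8.61 in feed controls. This ligand, made by T and NK cells among others, differed by -0.56 ± 0.25 (adjusted p = 0.42). It was 9.02, 9.31 and 8.90 in PCNB 18, 16 and 20, the only member whose PCNB and feed control arrays did not overlap (0.32, adjusted p = 0.9995). It was 8.77, 8.41 and 8.04 in NEDD, 9.57, 8.47 and 8.76 in corn oil and 8.99, 8.86 and 8.29 in benzofuran 10, 6 and 8. Of 7 T and NK cell markers 0 were called by limma for NDA and 3 had an unadjusted p under 0.05 (10.3% of all genes). Their summed signal was 10.40 to 10.70 against 10.89 to 11.20 in feed controls. Gzma weighed most in that sum, at 9.28 against 10.16.

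Ccl6, a macrophage ligand of Ccr1, varied between 11.14 and 11.72 over all arrays. Its signal was 11.33, 11.58 and 11.56 in feed controls, 11.19, 11.65 and 11.54 in NDA, 11.14, 11.62 and 11.46 in NEDD, 11.37, 11.55 and 11.42 in PCNB 18, 16 and 20, 11.50, 11.64 and 11.55 in corn oil and 11.72, 11.40 and 11.25 in benzofuran 10, 6 and 8. Ccl9, its neighbour on chromosome 11 and also a ligand of Ccr1, was 8.75, 9.07 and 8.47 in NDA and 8.34, 8.77 and 8.01 in feed controls (0.39 ± 0.23, adjusted p = 0.6187). Ccl4, a ligand made by macrophages and lymphocytes, was 5.60, 5.27 and 5.27 in feed controls, 5.35, 5.50 and 5.19 in NDA, 5.16, 5.37 and 5.41 in NEDD and 5.71, 5.34 and 5.76 in PCNB 18, 16 and 20. It was 5.05, 5.10 and 5.70 in corn oil and 5.84, 5.23 and 5.20 in benzofuran 10, 6 and 8. Ccl3 reached at most 4.88.

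The ligands of Ccr3 and Ccr4, which draw eosinophils and Th2 cells, gave no call. Ccl24, a macrophage eotaxin, was 5.89, 5.35 and 5.27 in feed controls, 5.65, 5.87 and 5.58 in NDA, 5.68, 5.76 and 5.68 in NEDD and 6.00, 5.70 and 5.72 in PCNB 18, 16 and 20. It was 5.70, 5.44 and 5.91 in corn oil and 6.18, 5.61 and 5.70 in benzofuran 10, 6 and 8, and all these groups overlapped their control. Its PCNB difference of 0.30 ± 0.17 was the member difference with the smallest unadjusted p for PCNB (0.091, adjusted p = 0.9995). Ccl17 and Ccl22, dendritic cell ligands of Ccr4 with 1 coding gene between them, lay at 6.35 to 7.34 and 5.60 to 6.19 over all arrays, and their NDA differences were -0.27 and -0.13.

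**Figure D3:**
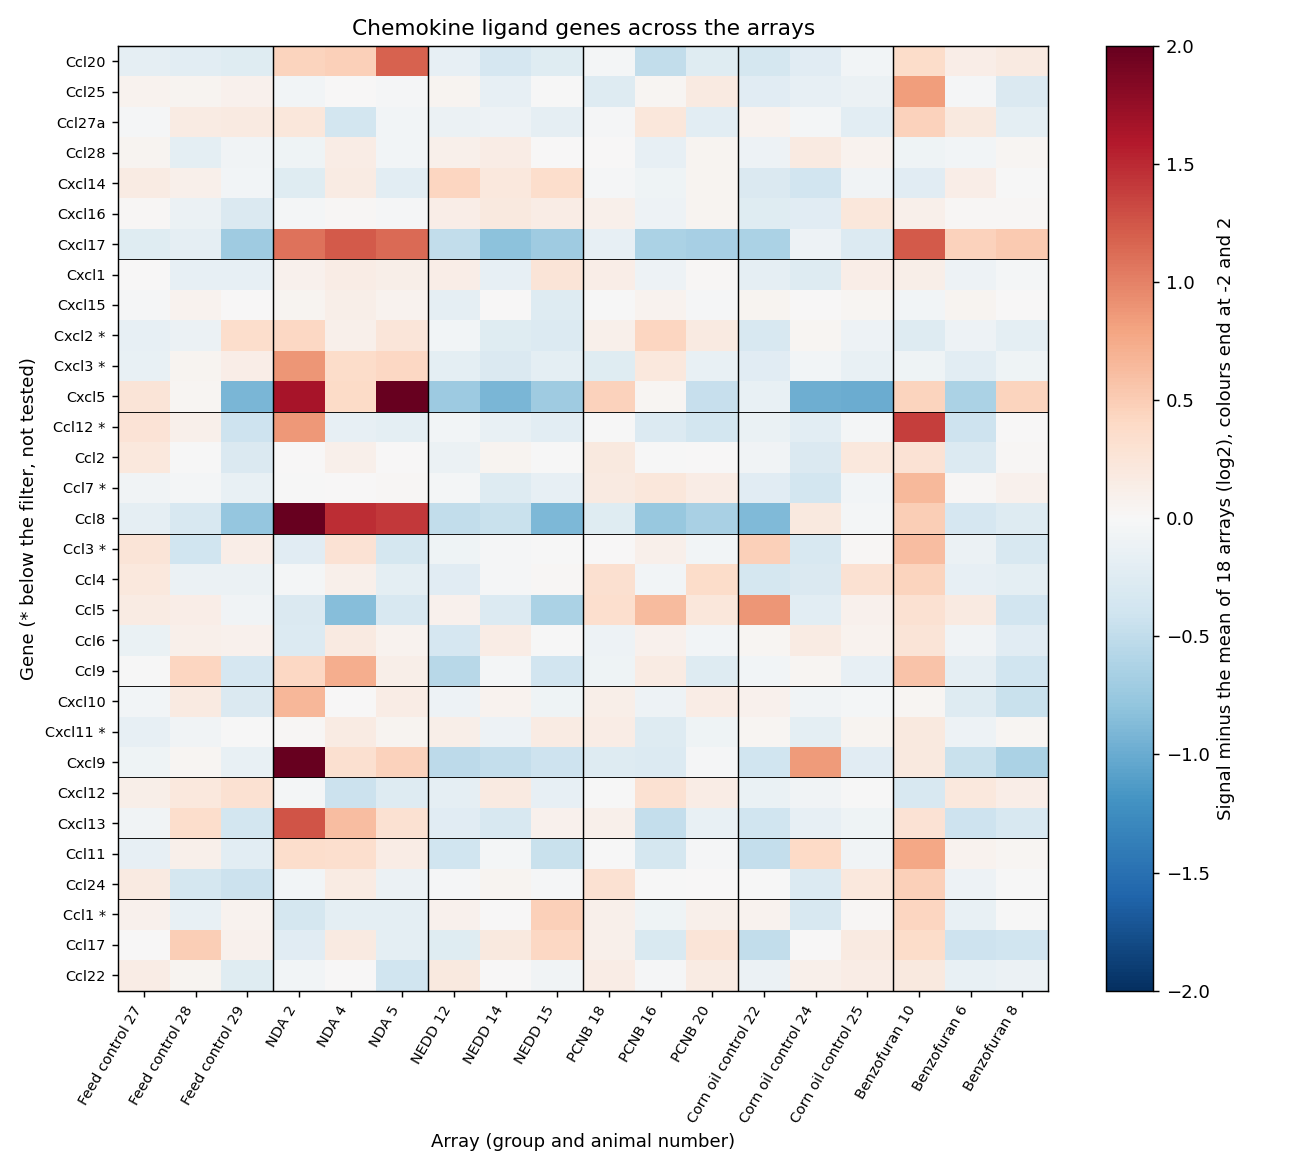
Log2 signal of all 31 members on all 18 arrays, each row centred on its mean, with arrays ordered by group; the colour scale is in log2 units. NDA arrays are high for Cxcl17, Ccl8, Ccl20 and Cxcl5, and the array of benzofuran 10 is high over many rows.

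NDA and NEDD are both naphthylamines, NDA with a second amino group on the ring system and NEDD with an aminoethyl chain on its nitrogen, given at the same 2000 ppm in feed for 13 weeks. They form the 1 pair of related compounds compared here. NDA was higher than NEDD for 5 of 24 members, Cxcl17, Ccl8, Ccl20, Cxcl5 and Cxcl9, where 1.88% of all genes were called higher and 2.12% in either direction. An unadjusted p under 0.05 was reached by 10 members (12.2% of all genes), and the arrays of 11 did not overlap (23.9%). The differences were 1.82 ± 0.20 for Cxcl17 (adjusted p = 1.575e-05), 2.46 ± 0.32 for Ccl8 (adjusted p = 0.0001216), 0.95 ± 0.16 for Ccl20 (adjusted p = 0.00175), 2.38 ± 0.45 for Cxcl5 (adjusted p = 0.00558) and 1.41 ± 0.35 for Cxcl9 (adjusted p = 0.0447). In each of the 5 the 3 NDA arrays lay above the 3 NEDD arrays. For Cxcl5 and Cxcl9 every NEDD array (at most 4.26 and 4.54) lay below the 40th percentile of the arrays (4.97 to 5.10). Both genes passed the filter on arrays of other groups, which limits what can be read from the size of their differences. The Cxcl9 call was lost without NEDD 12, 14 or 15 (1.38 to 1.44), without NDA 2 (0.86) and with the mean of its probe sets (0.67, adjusted p = 0.116). It was also lost with arrays centred on their medians (adjusted p = 0.0583), with a trended robust prior (0.0658) and with only these groups in the fit (0.075). For members that were not called the intervals still allow differences, for example -0.21 to 0.29 for Cxcl1. For Cxcl12 the probe set used gave -0.18 ± 0.14 (adjusted p = 0.6738), while another passed when every probe set was tested on its own (0.68 ± 0.15, adjusted p = 0.0237).

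The effects of NDA and benzofuran, each against its own control, were also set against each other. None of the 24 members passed limma's test of that difference (0.29% of all genes did), and 6 had an unadjusted p under 0.05 (9.34% of all genes). The difference for Ccl8 was 2.08 ± 0.45 (adjusted p = 0.0664), and it passed without benzofuran 10 (adjusted p = 0.02867) or without corn oil control 22 (adjusted p = 0.0256). For Cxcl17 it was 0.45 ± 0.28 (95% interval -0.14 to 1.04; adjusted p = 0.6174), for Ccl20 0.48 ± 0.23 (adjusted p = 0.5326) and for Cxcl5 1.01 ± 0.64 (adjusted p = 0.6219). Route, vehicle, days of dosing and dose differed between these treatments.

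The control groups were compared as well, and an absent call with 3 animals a group does not show that they were alike. Between corn oil and feed controls limma called 0 of 24 members and 0 of all genes, with 1 member (Cxcl14, -0.32) and 2.02% of all genes at an unadjusted p under 0.05, and the arrays of 3 members did not overlap (7.23% of all genes). Cxcl17 differed by 0.04, Ccl20 by 0.00 and Ccl8 by 0.19. Cxcl5 had the largest difference of the 24 members, -0.50 (4.27 in corn oil and 4.77 in feed controls). Cxcl9 was 5.03 in corn oil and 4.89 in feed controls.

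Receptors and other genes of the pathway were read from lists. Of 16 chemokine receptor genes tested (21 on the array), 0 were called by limma for any treatment, and an unadjusted p under 0.05 was reached by 2 for NDA, 0 for NEDD, 3 for PCNB and 4 for benzofuran (10.3%, 9.44%, 2.97% and 19.5% of all genes). The 3 for PCNB were Ccr1 (-0.68 ± 0.22), Cxcr2 (-0.30 ± 0.11) and Ccr10 (0.31 ± 0.12), each at an adjusted p of 0.9995. Ccr6, the receptor of Ccl20, differed by 0.64 ± 0.20 with NDA (adjusted p = 0.1809), and Cxcr4, that of Cxcl12, by -0.48 ± 0.12 (adjusted p = 0.0603). Cxcr6 differed by 0.60 ± 0.17 (adjusted p = 0.0762) and Cxcr2 by -0.39 ± 0.11 (adjusted p = 0.079) with benzofuran, or by 0.45 and -0.38 without benzofuran 10. Ccr8, on which Ccl8 acts, reached at most 4.02 and was not tested. Of 13 genes of NF-kappaB and its inducing cytokines 0 were called by limma for NDA, with 4 above 0 and a median of -0.12. An unadjusted p under 0.05 was reached by 3 of them (10.3% of all genes). Of the other chemokines tested (Pf4, Ppbp and Cx3cl1) 0 of 3 were called. At an unadjusted p under 0.05 there were 0 for NDA (10.3% of all genes) and 3 for benzofuran (19.5% of all genes). Pf4, a platelet chemokine, differed by 0.64 ± 0.17 with benzofuran (adjusted p = 0.0575), or by 0.41 without benzofuran 10. Of 5 lymphoid tissue genes 0 were called by limma for NDA (0 also at an unadjusted p under 0.05), with 4 above 0 and a median of 0.02.

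A number of members have more than 1 probe set. Cxcl17, Ccl8, Ccl20 and Cxcl5 have 1 each, so that no second probe set bears on their calls. When every probe set was tested on its own (23980 in all), a second probe set of Cxcl14 passed for benzofuran (0.77 ± 0.17, adjusted p = 0.0429), where the one used gave 0.22 ± 0.13. The call of the second probe set was lost without benzofuran 10 (0.66, adjusted p = 0.1789), where the one used gave 0.32 (adjusted p = 0.4059). The second probe set of Cxcl9 gave -0.02 for NDA, against 1.00, and that of Cxcl13 gave 1.04 ± 0.42 against 0.76 ± 0.24.

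**Figure D4:**
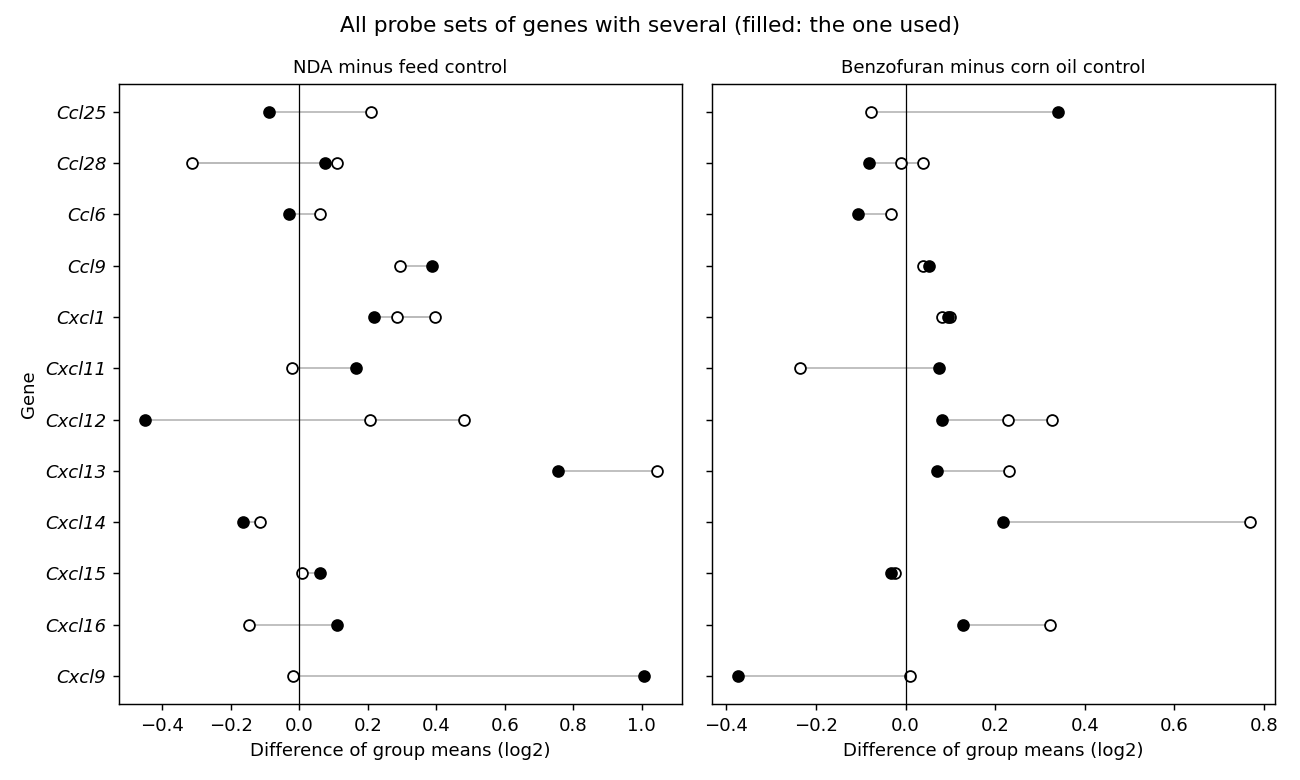
NDA minus feed control and benzofuran minus corn oil control, in log2 signal, for every probe set of the 12 members that have several; filled points are the probe sets used for the gene. The 3 probe sets of Cxcl12 fall on both sides of 0 for NDA, at -0.45, 0.21 and 0.48.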

How the data were processed

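RNA of 18 right lung lobes was extracted with Trizol and RNeasy, and 10 µg was labelled with biotin, per the labels. The authors deposited log2 values for 45101 probe sets. The base was judged from their range (2.48 to 14.78). How probes were summarised and arrays normalized is not given in the sources used here. Array medians lay at 5.678 to 5.803, and values were kept as deposited. Symbols came from the platform annotation (34945 probe sets with a single one).

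The fit used limma 3.58.1 (R 4.3.3), with a mean for each group and all 18 arrays, which leaves 12 residual degrees of freedom. The Benjamini-Hochberg adjustment covered 13434 genes. A gene was tested if above its array's 40th percentile (4.97 to 5.10) on at least 3 arrays. On simulated data the procedure recovered 93.0% of 2-fold changes for NDA against feed control and 91.7% for benzofuran against corn oil, with 4.5% and 4.7% of calls false. For the NDA effect minus the benzofuran effect it recovered 79.7%, with 3.6% false. These rates describe the simulated data only. Whether they hold for the real arrays, where a benzofuran array stood apart from the others, was not tested.

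Members, lists and rules were chosen with earlier results of these data known. Values per array are given for Cxcl17, Cxcl5, called members, the 6 with the highest means and the 4 with the smallest p in each treatment comparison. Other members with single values were chosen after these were seen. Each animal is 1 array, so p-values measure the spread between animals. The number of arrays limits the precision. Alternatives covered the filter, centring, probe sets, variance model, array weights, actin difference, samples in the fit and each animal left out.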

Additional observations from a re-analysis of the deposited data

How the results depend on the processing

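The counts of called chemokine ligands for NEDD, PCNB and the controls stayed at 0 under every alternative run. For NDA against feed control the count of 3 became 2 with a filter at the 60th percentile, which does not test Ccl20. It became 5 with array weights (adding Cxcl5 and Cxcl12) and 6 with the actin difference as a covariate (adding Cxcl9, Cxcl12 and Cxcl13). Cxcl12 was called lower in both (-0.46 and -0.63). The count lay at 3 to 4 when an animal was left out. The same 3 genes were called with benzofuran 10 out of the shared spread, an alternative chosen after seeing the data. For benzofuran the count of 1 became 2 with array weights, 2 with every probe set on its own (also chosen after seeing the data), 0 with only both groups in the fit, and lay at 0 to 1 when an animal was left out. For NDA against NEDD the count of 5 became 2 with a filter at the 60th percentile, which tests 12 members. It became 10 with array weights, 8 with the actin covariate and 8 with benzofuran 10 out of the shared spread. Cxcl14 was called lower in each of these (-0.51, -0.48 and -0.43). The count lay at 4 to 6 when an animal was left out. With every probe set on its own it stayed at 5, with Cxcl12 in place of Cxcl9. The values without benzofuran 10 of markers, receptors and second probe sets were likewise computed after seeing the data. For the NDA effect minus the benzofuran effect the count of 0 became 3 with array weights and 1 with the actin covariate. With array weights Ccl8 was called higher (2.15), and Cxcl12 and Cxcl14 were called lower (-0.74 and -0.60). The count lay at 0 to 1 when an animal was left out. No called value turned its direction. Of the alternatives for the 9 called values of named members 119 kept the call and 11 lost it. The share of all genes called under each alternative is not given beside the counts of called members. These counts are therefore not read as results about the members. The cause of the changes in calls was not tested. No paired analysis was possible because no animal number occurs in more than 1 group. Signals near the 40th percentile, as for Ccl20, or below it in some groups, as for Cxcl5 and Cxcl9, limit what can be read from their size.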
